A study of Drosophila melanogaster with 2 samples.

Results

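The genes described here are the 2 subunits of the Drosophila ecdysone receptor, EcR and usp, and 8 transcription factor genes of the hormone response. These 8 are Eip74EF, Eip78C, br, Hr3, Hr4, Hr39, ftz-f1 and Eip93F. These 10 genes were chosen by name and not by a threshold on their peaks, out of 13945 protein-coding genes annotated on the 6 chromosome arms. Earlier results of these data were known when they were chosen, so an excess of peaks at them is no independent evidence. A Brinker peak was given to a gene when its summit fell in the gene body or within 5 kb of either end. By that rule 41 of the 3380 peaks on the arms that passed the irreproducible discovery rate (IDR) procedure belong to them. IDR compares how peaks rank in replicates. The peaks kept here are the pooled entries of highest signal, so a kept peak is not thereby shown to rank alike in both replicates.

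Ecdysone is the steroid that times moulting and metamorphosis in insects. It binds EcR, a nuclear receptor that works as a heterodimer with Usp, the fly homolog of the vertebrate retinoid X receptor, and the complex turns on a small set of early genes whose products are themselves transcription factors. These in turn switch on, delay or repress later genes, so that one pulse of hormone unfolds as a timed sequence. Late in the last larval instar, when larvae leave the food and wander, such a pulse leads to the formation of the puparium.

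Chromatin immunoprecipitation followed by sequencing was carried out on whole Drosophila melanogaster larvae of the strain brk-GFP, males and females together, at the wandering stage of the last instar; the age is given as unknown. The strain stably expresses Brinker with GFP fused to its carboxy terminus, and an anti-GFP antibody pulled down the chromatin. Brinker is a sequence-specific repressor of genes that the BMP ligand Dpp activates. There is 1 group, with biological replicates numbered 3 and 4, each made from its own biosample, so no condition can be compared with another. The labels do not state whether untagged Brinker was also present, and larvae without the tag were not analysed here. Whole animals mix all tissues, so a peak cannot be assigned to a cell type, and occupancy in few cells cannot be told apart from weak occupancy in many.

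Each value below is the signal that the authors deposited for a peak, on a scale that the labels and file notes do not give. It serves only to rank peaks within a list, and no error can be attached to it beyond the values of the 2 replicates. Pooled reads of both replicates gave a list of 29964 entries on the arms, replicate 3 alone a list of 29964 and replicate 4 alone a list of 29966. Their median signals were 31.3, 19.6 and 16.5, and these long lists hold background as well as peaks. On the arms, the IDR list consists of the pooled entries with a signal of at least 82.6, and its strongest nuclear peak reached 1788. The files give no read counts, so depth is unknown and no counting interval can be given.

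Brinker peaks were found at 7 of the 10 genes: 11 each at EcR and Eip74EF, 6 each at br and Hr4, 4 at ftz-f1, 2 at Hr39 and 1 at Eip78C. No IDR peak lay at usp, Hr3 or Eip93F. Among all protein-coding genes, 26.9% have an IDR summit by the same rule, but long genes collect more summits than short ones. With the flanks included, 6 of the 10 genes span 50 to 110 kb, and 5 of these 6 have a peak, beside 56.9% of all 378 genes of that length. In the class from 20 to 50 kb, 2 of 3 have one (Eip78C and Hr39, not Hr3), beside 48.9%. The short gene usp has none, beside 23% of genes below 20 kb. Read against these shares, having a peak did not set the 10 genes apart, while the number of peaks at EcR and Eip74EF was far above the usual. In the class from 50 to 110 kb the median gene had 1 summit and the 90th percentile was 6. Of its 378 genes, 43 had 6 or more, br and Hr4 among them, and 10 had 11 or more. Over all protein-coding genes, most of them shorter, 15 (0.108%) had at least 11 summits. At least the 6 of br and Hr4 were found at 105 (0.753%), and at least the 4 of ftz-f1 at 375 (2.69%). The 1977 genes with windows of 20 kb or more were also ranked by summits per kb. Eip74EF stood at 77, EcR at 161, Hr4 at 338, ftz-f1 at 417, Hr39 at 438, br at 442 and Eip78C at 909. The median signal of the 41 peaks was 103, against 119 over all nuclear IDR peaks, and 2 of the 41 were in the strongest 10%. These 2 were the peak of Eip78C, with 448, and the strongest of Eip74EF, with 293.

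**Figure D1:**
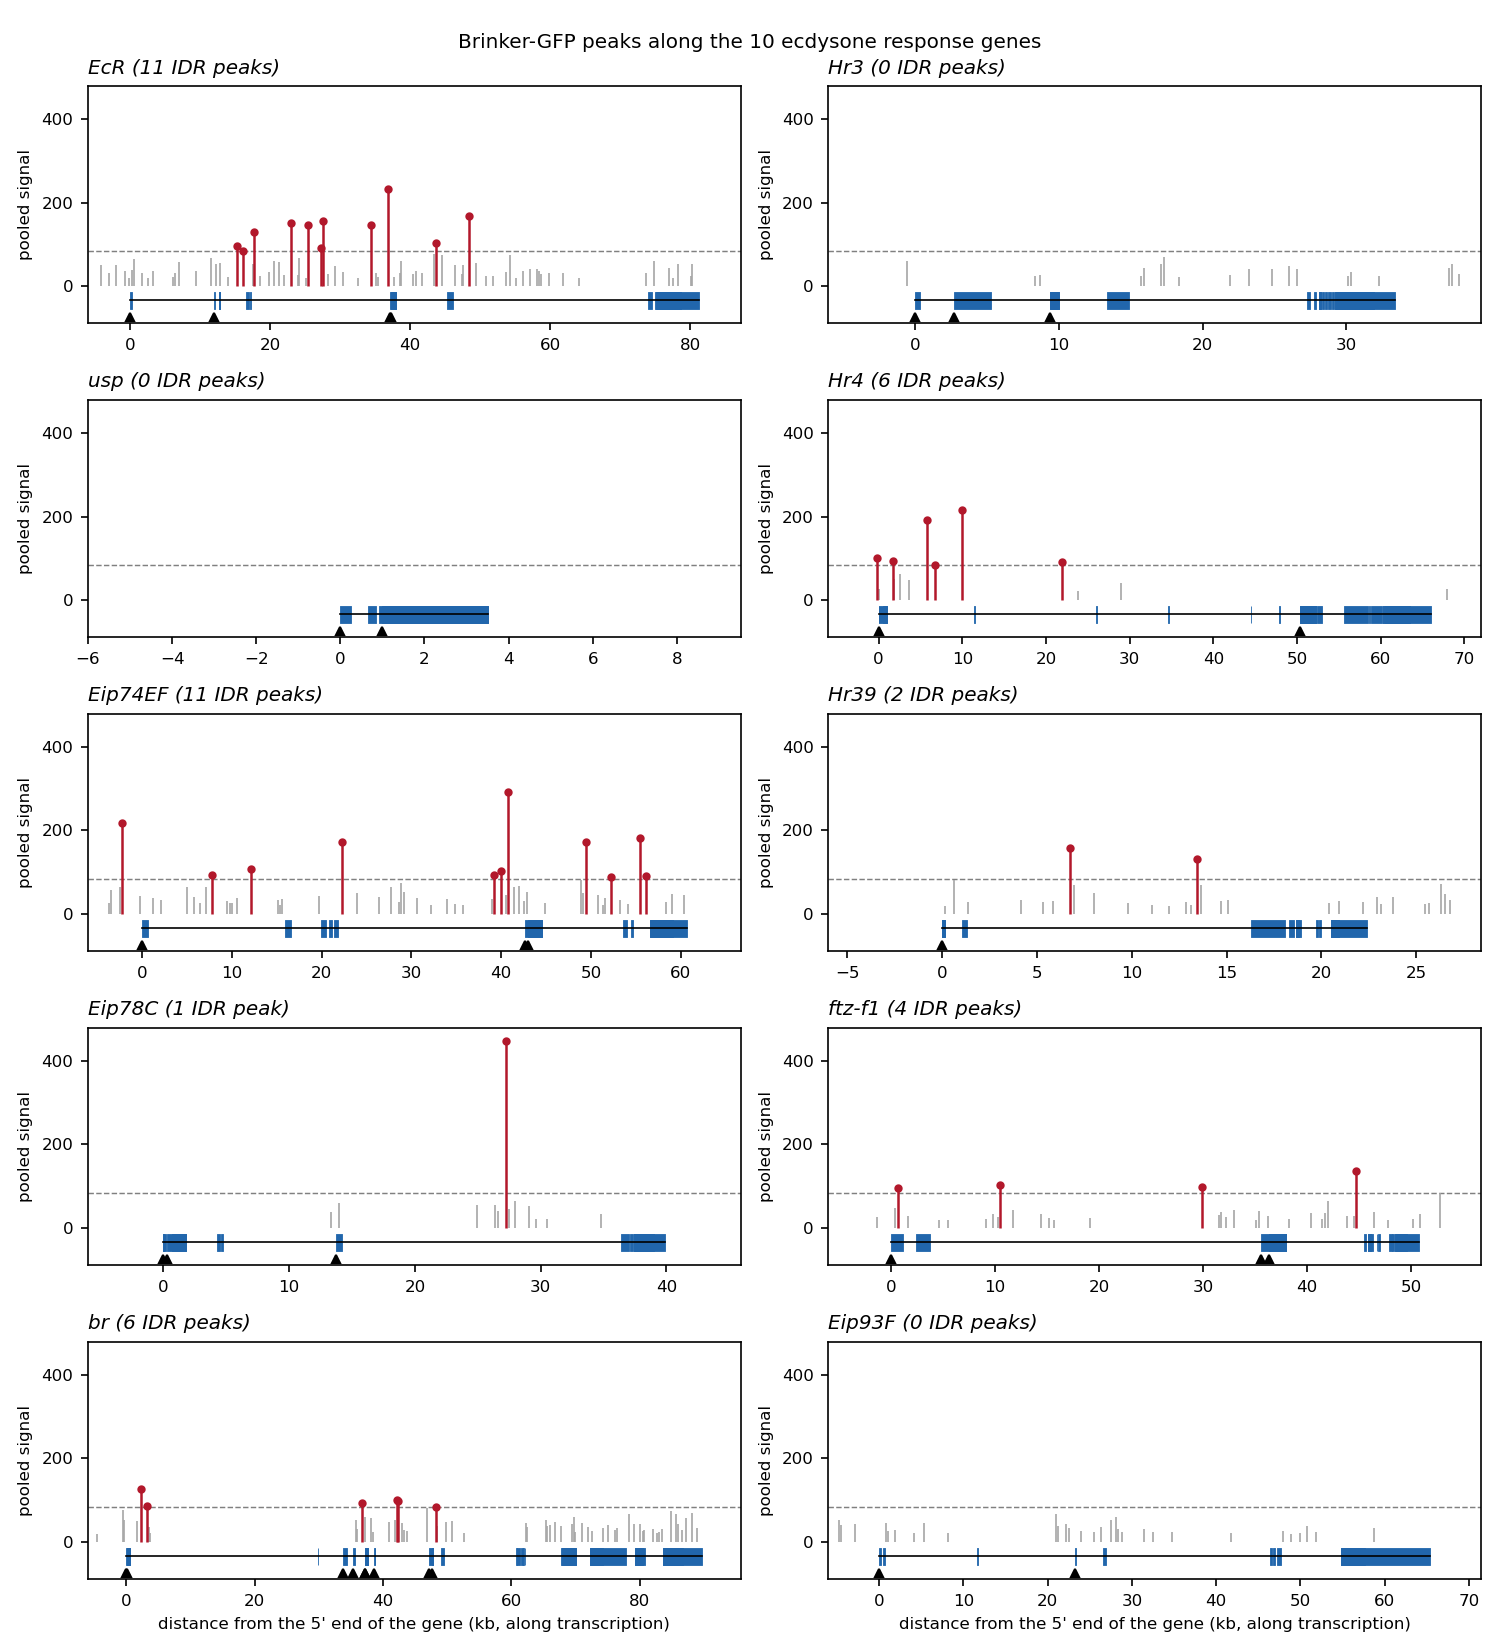
Peaks along each of the 10 genes, with the distance from the 5′ end of the gene in kb along transcription on the x axis and the deposited pooled signal on the y axis. Red stems with a dot are IDR peaks, grey lines pooled entries outside the IDR list, blue boxes exons of any transcript, triangles start sites and the dashed line the lowest nuclear IDR signal of 82.6; EcR and Eip74EF have 11 red stems each, and usp has no entry of either kind.

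**Figure D2:**
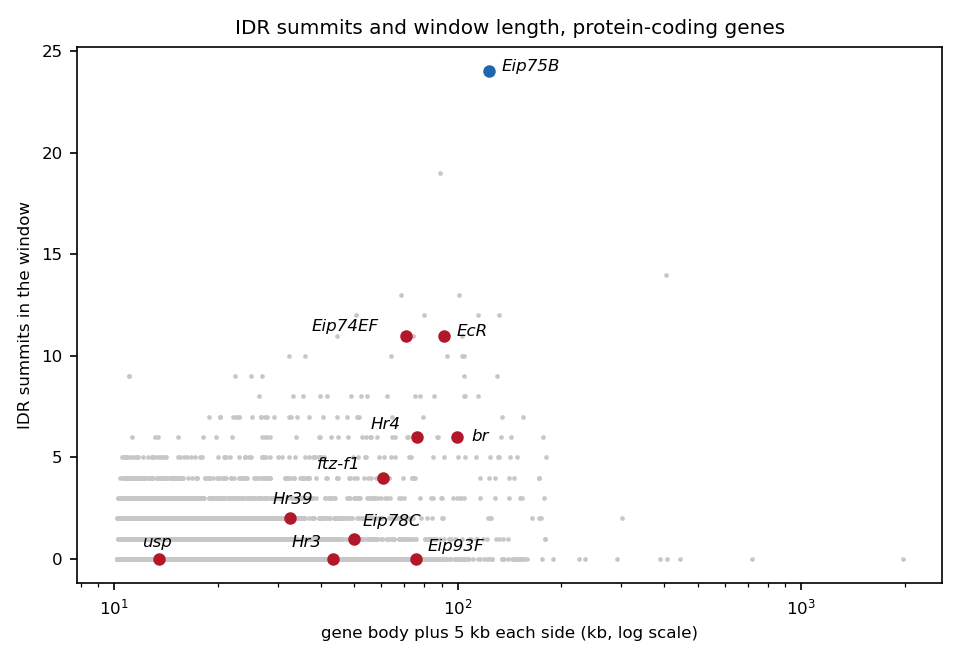
Number of IDR summits (y axis) against the length of the gene body plus 5 kb on each side (x axis, kb, log scale) for protein-coding genes, each a grey point; the 10 genes are red and Eip75B is blue. EcR and Eip74EF stand at 11 summits, where 15 genes have as many or more, and usp, Hr3 and Eip93F stand at 0.

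EcR, which encodes the hormone-binding subunit, is a gene of 81.2 kb on the minus strand of 2R (6087873 to 6169087, FBgn0000546). Its 11 IDR peaks lay between 15.3 and 48.4 kb from its 5′ end, and none lay at either end of the gene. From 5′ to 3′ their signals were 95.3, 84.4, 131, 151, 145, 91.5, 156, 147, 233, 103 and 169. The highest was at a promoter: its summit, at 6132236, was 314 bp upstream of the start shared by the transcripts EcR-RB and EcR-RC and 395 bp upstream of that of EcR-RG. This promoter peak had 110 in replicate 3 and 117 in replicate 4, nearly equal values. The other 10 summits fell in introns. The 5′-most start, that of EcR-RA, was 15327 bp from the nearest IDR summit, and the strongest pooled entry within 500 bp of it had a signal of 37. Just beyond that distance, 550 bp past this start, lay a pooled entry of 63.6, with 45.9 in replicate 3 and 15.2 in replicate 4. At the start of EcR-RD and EcR-RE the nearest IDR summit was 3369 bp away, but a pooled entry of 66.7 lay 413 bp upstream, with 27.6 in replicate 3 and 38.2 in replicate 4. Of the 3 start regions of EcR, then, only the internal one of EcR-RB, EcR-RC and EcR-RG had an IDR summit within 500 bp.

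The long introns of EcR also contain 13 tRNA genes, between 2.86 and 26.9 kb from its 5′ end. Summits of EcR peaks lay 181 and 223 bp from 2 asparagine tRNA genes, with signals of 95.3 and 84.4, and 374 bp from an arginine tRNA gene, with 91.5. Within 500 bp of an IDR summit were 4 of these 13 genes (30.8%), compared with 33 of the 290 tRNA genes on the arms (11.4%). These 3 peaks were the weakest of the 11 at EcR. tRNA genes occur in near-identical copies, and how reads were shared among copies is not stated. The arginine tRNA peak overlapped the next one, of 156, so the 11 peaks form 10 separate intervals. The pair was also unequal between replicates: the stronger summit had 106 in replicate 3 and 44.9 in replicate 4, and the weaker 53.6 and 28. The 3 summits between 6143671 and 6151312 had 65.2 to 69.3 in replicate 3 and 67.1 to 80.6 in replicate 4.

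usp, which encodes the partner of EcR, is a compact gene of 3.51 kb on the minus strand of X (2038798 to 2042311, FBgn0003964). It had no IDR peak and no pooled entry, and the lists of the 2 replicates disagreed. In replicate 3 the window held 10 entries. The strongest, 60.9 with rank 2219 of that list, had its summit 155 bp upstream of the start of usp-RA, and another, of 43, lay 142 bp upstream of the start of usp-RB. Both promoters of usp were thus among the stronger entries of replicate 3. Replicate 4 had no entry from 1972513 to 2121981, a stretch of 149 kb around the gene, and the pooled list had none over 112 kb. Each of the 3 long lists has 23 to 25 such empty stretches of at least 149 kb on the arms. The absence of usp from the pooled list therefore coincided with a stretch without any entry, and the cause was not tested. Over all arms, 398 of the 3380 strongest entries of replicate 3 (11.8%) and 87 of those of replicate 4 (2.57%) overlapped no pooled entry. Besides usp, those of replicate 3 included entries of 106 at br, 83.2 at Eip74EF, 56.9 at Eip78C, 51 at Hr4 and 50.3 at Hr3. The IDR summit nearest to usp was the last one of Hr4, at 1963914 and 74.9 kb away.

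Eip74EF encodes an ETS-domain factor from nested promoters and was one of the first early puff genes defined; it spans 60.7 kb of the minus strand of 3L (17558672 to 17619325, FBgn0000567). Its 11 peaks were spread from 2253 bp upstream of its 5′ end to 56.1 kb into the gene. From 5′ to 3′ they had signals of 217, 94.2, 106, 173, 92.8, 102, 293, 173, 88.4, 183 and 89.9. The strongest, with 128 in replicate 3 and 166 in replicate 4, ranked 242 among the nuclear IDR peaks, with its summit at 17578529. It lay in an intron, 1903 bp upstream of the start of Eip74EF-RB and 2209 bp upstream of that of Eip74EF-RD, with summits of 92.8 and 102 within 2 kb on its 5′ side. The peak of 217 (120 and 96.2 in replicates 3 and 4) lay 2253 bp upstream of the start of Eip74EF-RA, Eip74EF-RC and Eip74EF-RE, but only 47 bp from the start of the neighbouring gene Vps60. It may be counted for either gene. No IDR summit was within 500 bp of a start site of Eip74EF itself. The windows of 201 bp around 3 of its peaks are shown because they carry the strongest summit, the palindromic Brinker sequence and the densest cluster of motifs; they are given 5′ to 3′ on the plus strand of the RefSeq Release 6 genome, which has the dm6 coordinates. Capitals mark, on either strand, the Brinker sequences (GGCGCC or GGCGCT and GGCGTC or GGCGTT), the GAGA sequence (GAGAG) and the ecdysone receptor half-site (AGGTCA).
Eip74EF peak 7, chr3L:17578429-17578629: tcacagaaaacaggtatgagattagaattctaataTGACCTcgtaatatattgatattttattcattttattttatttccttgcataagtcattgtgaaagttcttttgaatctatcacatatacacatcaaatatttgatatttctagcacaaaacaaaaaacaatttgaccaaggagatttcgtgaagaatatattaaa
Eip74EF peak 4, chr3L:17596935-17597135: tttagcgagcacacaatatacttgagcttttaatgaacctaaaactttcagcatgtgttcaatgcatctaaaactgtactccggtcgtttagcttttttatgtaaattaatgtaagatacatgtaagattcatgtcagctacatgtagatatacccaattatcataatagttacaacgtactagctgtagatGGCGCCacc
Eip74EF peak 10, chr3L:17563741-17563941: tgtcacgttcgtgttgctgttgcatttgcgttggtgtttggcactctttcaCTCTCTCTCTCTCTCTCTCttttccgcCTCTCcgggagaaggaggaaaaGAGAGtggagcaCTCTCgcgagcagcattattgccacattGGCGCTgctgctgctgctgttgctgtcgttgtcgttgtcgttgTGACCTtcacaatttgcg
The strongest window held 1 half-site (capitals, minus strand) and no Brinker sequence. The window of the peak of 173 at 17597035 (88.2 and 82.3 in the replicates) ended in a Brinker sequence. That of the peak of 183 at 17563841 (120 and 64) held 1 Brinker sequence, 1 half-site and 11 overlapping copies of GAGAG.

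Eip78C encodes a nuclear receptor of an ecdysone-induced puff, related to the vertebrate Rev-erb receptors, and spans 39.9 kb of the plus strand of 3L (21226609 to 21266503, FBgn0004865). It had 1 IDR peak, and that was the highest of the 41. Its signal was 448, rank 70 among the nuclear IDR peaks, with 214 in replicate 3 and 229 in replicate 4. Among genes with any IDR peak, 94.7% had a strongest peak no higher. The summit, at 21253882, lay in an intron 27.3 kb from the 5′ end of the gene and 13535 bp past the start of Eip78C-RB. The nearest start site was that of CG43218, 4138 bp away and inside the Eip78C gene. At the start of Eip78C-RB itself a pooled entry of 60.3 lay 185 bp past it, with 21.1 in replicate 3 and 32 in replicate 4, below the IDR list. The sequence of the summit window is shown because this peak stands apart in height.
Eip78C peak 1, chr3L:21253782-21253982: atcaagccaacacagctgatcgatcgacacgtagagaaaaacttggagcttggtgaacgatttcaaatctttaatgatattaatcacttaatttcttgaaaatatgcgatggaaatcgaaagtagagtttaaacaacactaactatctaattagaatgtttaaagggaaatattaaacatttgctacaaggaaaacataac
It has no capitals: none of the Brinker, GAGA or half-site sequences occurs in it.

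br, the Broad-Complex, encodes zinc-finger factors that specify pupal development, and spans 89.7 kb of the plus strand of X (1575132 to 1664869, FBgn0283451) with 9 start sites. Its 6 peaks were low and lay in 2 groups, at 2.22 and 3.25 kb and from 36.7 to 48.3 kb from the 5′ end. Their signals were 126, 85.3, 92.3, 101, 97.1 and 83, with the last just inside the list. The second group overlaps the internal start sites: summits were 509 bp before the start of br-RP and 683 bp past that of br-RM. The log2 ratio of the replicates had an SD of 1.28 over these 6 peaks, against 0.41 to 0.68 at the other genes with more than 1 peak. The first peak had 100 in replicate 3 and 32.7 in replicate 4, the second 25.4 and 69.2, and the last 64.5 and 16.5. So 3 of the 6 peaks differed by more than 2-fold between replicates, and not always in the same direction. The remaining 3 had 45.6 to 54.3 in replicate 3 and 54.7 to 58 in replicate 4; the peaks of 101 and 97.1 overlap and match 1 entry of replicate 4. The window of the last peak is shown because it is a run of GAGA sequences.
br peak 6, chrX:1623315-1623515: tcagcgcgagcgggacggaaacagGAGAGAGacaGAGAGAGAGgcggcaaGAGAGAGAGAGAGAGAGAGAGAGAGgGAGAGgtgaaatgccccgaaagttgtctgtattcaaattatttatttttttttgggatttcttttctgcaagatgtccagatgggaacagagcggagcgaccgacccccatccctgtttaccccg
This window holds 17 overlapping copies of GAGAG. Just below the list, a pooled entry of 81.2 lay 291 bp before the start of br-RS, with 28 and 52.6 in the replicates. The highest entry of replicate 3 in the br window is not among these. It had 106, rank 634 of that list, with its summit at 1664873 at the 3′ end of the gene, and it overlapped no pooled entry.

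Hr4, Hr39 and ftz-f1 encode nuclear receptors. Hr4 is a repressor of early ecdysone genes in prepupae, and spans 66 kb of the plus strand of X (1941940 to 2007956, FBgn0264562). Its 6 IDR peaks all lay in the first 22 kb, at the promoter and in the introns after it. From 5′ to 3′ the signals were 102, 94.2, 191, 83.8, 216 and 90.9. The first summit was 144 bp upstream of the start shared by 7 of the 9 transcripts, with 51.4 in replicate 3 and 41.7 in replicate 4. The strongest, 9.96 kb from the start in an intron, had 117 and 108, and the peak of 191 had 88.3 and 116. No Hr4 peak differed by more than 2-fold between replicates. Around the other start, of Hr4-RE and Hr4-RF at 1992300, the nearest IDR summit was 28386 bp away. That start lies in the stretch around usp where replicate 4 had no entry. In the part of the Hr4 window inside this stretch, replicate 3 had entries of 56.6 and 51. The whole Hr4 window held 13 pooled entries, 6 of them the IDR peaks, or 1.71 per 10 kb against 2.24 over all arms. The stretch around usp that is empty in replicate 4 covers 53.2% of this window, and 1 of the 13 entries lay in it. The other 12 lay in the 35.6 kb before it, 3.37 per 10 kb.

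Hr39, a relative of ftz-f1 that binds the same sequence, spans 22.4 kb of the plus strand of 2L (21237250 to 21259675, FBgn0261239) and has a single annotated start. Its 2 peaks, of 158 and 131, were in introns 6764 and 13437 bp past that start. Both were higher in replicate 3, with 102 and 107, than in replicate 4, with 59.2 and 31.8. At 609 bp past the start a pooled entry of 79.9 (60.4 and 35.2) fell just short of the IDR list. ftz-f1 encodes the competence factor that lets prepupal genes respond to the next hormone pulse, and spans 50.7 kb of the minus strand of 3L (18750607 to 18801309, FBgn0001078). Its 4 peaks had 95, 102, 97.8 and 137, in order from the 5′ end. The first lay 654 bp past the start of ftz-f1-RB in a noncoding exon, with 55.3 in replicate 3 and 22.2 in replicate 4. The summits of these replicate entries lay 360 bp apart, so they may not be the same site. The strongest lay 44.7 kb from the 5′ end in an intron, with 75.8 and 58.9. A further pooled entry at ftz-f1, with its summit at 18748592 past the 3′ end, had 82.4, the highest value outside the list at any of the 10 genes. Windows around the strongest peak of each of these receptor genes, and around the second strongest of Hr4, are shown with the same capitals.
Hr4 peak 5, chrX:1951799-1951999: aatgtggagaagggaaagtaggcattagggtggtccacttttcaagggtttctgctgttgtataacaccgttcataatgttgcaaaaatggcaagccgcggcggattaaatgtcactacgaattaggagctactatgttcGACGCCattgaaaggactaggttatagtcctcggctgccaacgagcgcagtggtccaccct
Hr4 peak 3, chrX:1947645-1947845: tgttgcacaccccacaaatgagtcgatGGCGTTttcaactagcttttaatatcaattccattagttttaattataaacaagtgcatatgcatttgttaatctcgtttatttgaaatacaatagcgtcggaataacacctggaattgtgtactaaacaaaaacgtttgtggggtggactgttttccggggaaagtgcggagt
Hr39 peak 1, chr2L:21243914-21244114: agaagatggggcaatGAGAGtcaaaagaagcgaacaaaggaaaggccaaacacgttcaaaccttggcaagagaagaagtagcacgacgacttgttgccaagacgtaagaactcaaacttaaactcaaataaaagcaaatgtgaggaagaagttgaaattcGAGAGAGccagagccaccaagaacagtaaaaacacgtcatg
ftz-f1 peak 4, chr3L:18756526-18756726: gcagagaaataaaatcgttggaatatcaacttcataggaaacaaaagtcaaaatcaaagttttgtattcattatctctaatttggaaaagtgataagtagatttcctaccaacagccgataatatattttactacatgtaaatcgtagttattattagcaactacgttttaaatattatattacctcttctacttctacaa
Both Hr4 windows hold 1 Brinker sequence, GGCGTC on the minus strand in the first and GGCGTT on the plus strand in the second. The Hr39 window holds 3 copies of GAGAG, and the ftz-f1 window none of the marked sequences.

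Hr3 and Eip93F had entries in every long list but no IDR peak. Hr3 encodes the receptor that helps to switch on ftz-f1 and to switch off early genes, and spans 33.4 kb of the minus strand of 2R (10203995 to 10237348, FBgn0000448). Its strongest pooled entry had 68.9, with 30.7 in replicate 3 and 39.1 in replicate 4, in the gene 7920 bp past the start of Hr3-RA. Another of 59.7 lay 550 bp upstream of the start of Hr3-RD, with 25.3 and 34.4. These values were above the median of each list and below the IDR list. In the separate lists the highest entries in the Hr3 window reached 54.4 in replicate 3 and 44.4 in replicate 4, each high in that replicate only: the pooled entries they overlap, of 48.9 and 41.2, have no counterpart in the other replicate. The nearest IDR peak, of 108, was 34.1 kb beyond the 5′ end, 467 bp from the start of CAP.

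Eip93F encodes a helix-turn-helix factor that directs cell death and the adult programme at metamorphosis, and spans 65.4 kb of the plus strand of 3R (21949114 to 22014539, FBgn0264490). Its strongest pooled entry, of 65.8, lay 2251 bp upstream of the start of Eip93F-RA and Eip93F-RC, with 36.8 in replicate 3 and 29.4 in replicate 4. A second, of 59.7, lay 4848 bp past that start, with 34.1 and 34.9. An IDR peak of 118 lay 7.55 kb upstream of the gene, at 21941352 to 21941767, and Eip93F had the nearest start site of any gene. It is outside the 5 kb limit and would count with a limit of 10 kb. Eip93F therefore had a peak nearby, and usp and Hr3 did not within 30 kb.

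The peaks lay in introns more than at start sites. Of the 41 summits, 37 were in introns of the gene, 2 within 500 bp of one of its start sites, 1 further upstream and 1 in a noncoding exon. The share of all nuclear IDR summits in introns is not given, so the 37 have no background here. Within 500 bp of a start site of any gene were 6 of 41 (14.6%), compared with 44.5% of all nuclear IDR summits and with 30.1% of the 712 IDR summits in genes whose windows span 50 to 110 kb. Over all protein-coding genes, 9.72% of start sites have an IDR summit within 500 bp. Of the 41 summits, 5 were within 1 kb of a start site of their own gene, 17 within 5 kb and 30 within 10 kb. For 21 of the 41 no other gene had a nearer start site. The windows also contain 72 other genes, 38 of them protein-coding, so that a peak in an intron of EcR or br is not thereby shown to act on EcR or br.

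Both replicates had an entry overlapping each of the 41 peaks. Most nuclear IDR peaks, 3244 of 3380, also had both, so this does not set the 41 apart. Of the 3380, 134 were missing from the list of replicate 4 and 2 from that of replicate 3. The replicate summits lay within 200 bp of each other at 40 of the 41, with 199 bp at the br peak of 101. That count has no background here, but the median distance was 38 bp at the 41 and 33 bp over all nuclear IDR peaks. On the log2 scale the ratio of replicate 3 to replicate 4 had a median of -0.00 and an SD of 0.71 over the 41 peaks, and a median of 0.04 and an SD of 0.65 over the 3244 peaks listed in both. It was above 0 at 20 peaks and below 0 at 21. A difference of more than 2-fold was seen at 7 of 41 peaks (17.1%) and at 335 of 3244 (10.3%). The 7 were 3 at br and 1 each at EcR, Eip74EF, Hr39 and ftz-f1, and 6 of them were higher in replicate 3. Without the ftz-f1 peak whose replicate summits lay 360 bp apart, it was 6 of 40. The strongest peaks of Eip78C, Eip74EF, EcR and Hr4 had values in the 2 replicates that differed by less than this.

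**Figure D3:**
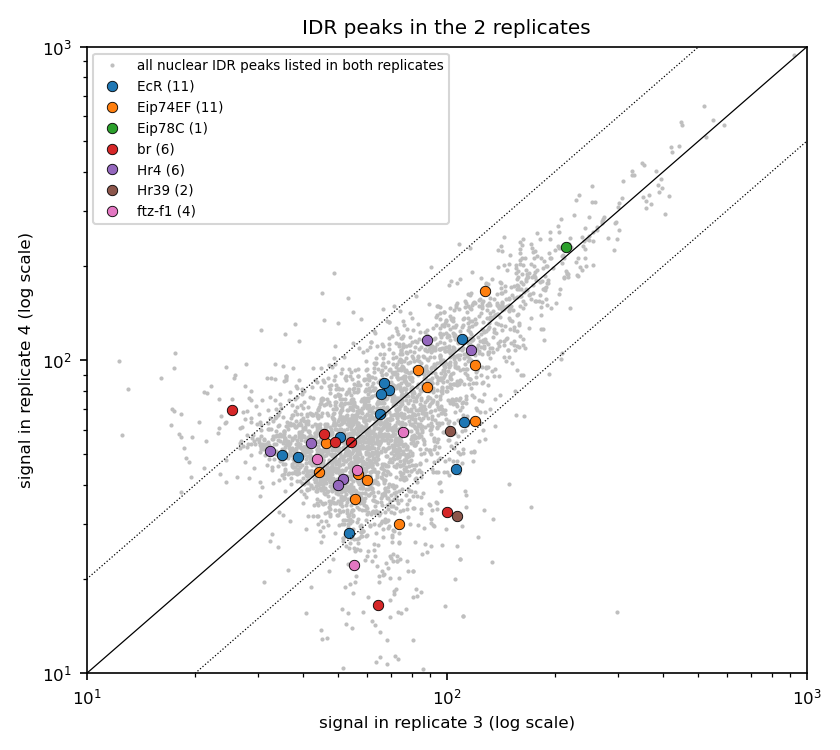
Signal in replicate 3 (x axis) against replicate 4 (y axis), both on log scales, for every nuclear IDR peak listed in both replicates (grey) and for the 41 peaks at the 10 genes, coloured by gene with their number in the key. The solid line marks equal signals and the dotted lines a 2-fold difference; 7 of the 41 points lie beyond the dotted lines, 3 of them at br.

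In the pooled list, with the IDR peaks counted in, the loci differed in how densely entries were listed. The 10 windows held 332 pooled entries, 5.42 per 10 kb, against 2.24 per 10 kb of all arms. The arms include sequence outside genes, and no pooled density over the windows of other genes is given. The density was 8.94 per 10 kb at Hr39, 8.33 at EcR, 8.07 at Eip74EF, 6.02 at br, 5.93 at ftz-f1, 4.38 at Hr3, 3.98 at Eip93F, 2.41 at Eip78C, 1.71 at Hr4 and 0 at usp. Eip78C was thus near the level of the arms, and the low value of Hr4 includes the stretch empty in replicate 4. Of the 332, 291 were outside the IDR list, 66 of them at 50 or more and 12 at 70 or more. Sites outside the list that both replicates gave within 200 bp of each other numbered 129. That is 42.6% of the 303 such entries of replicate 3 and 52% of the 248 of replicate 4, where the shares over all arms were 42.5% and 42%. By gene there were 31 at EcR, 26 at Eip74EF, 24 at br, 12 at ftz-f1, 12 at Eip93F, 9 at Hr39, 7 at Hr3, 6 at Eip78C, 2 at Hr4 and 0 at usp. Just inside the threshold stood the br peak of 83, the Hr4 peak of 83.8 and the EcR peak of 84.4, and just outside it the entries of 82.4 at ftz-f1, 81.2 at br and 80.4 at Eip74EF. Small changes in the authors' cut would move such entries across it.

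The summit windows were searched for the sequences known for Brinker, for the ecdysone receptor and for other regulators, on both strands over 201 bp. A Brinker sequence occurred in 14 of the 41 windows (34.1%), in 14.3% of all nuclear IDR windows and in 13.8% of the 1875 IDR windows farther than 500 bp from any start site. The 14 were 5 at EcR, 3 at Hr4, 2 at Eip74EF, 2 at ftz-f1, 1 at br and 1 at Hr39. The strongest peak of all, that of Eip78C, had none. Windows rich in G and C hold this GC-rich sequence more often, and the median GC content was 38.3% in the 41 windows and 34.3% in all nuclear IDR windows. In windows below 40% GC, a limit chosen after the data were seen, 7 of 21 (33.3%) had the sequence at these genes and 271 of 2562 (10.6%) elsewhere. At 40% GC or more it was 7 of 20 (35%) and 197 of 777 (25.4%). Most of the 14 matches were not at the summit: only 3 windows had a match within 50 bp of it, where 6.51% of all nuclear IDR windows have one.

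The ecdysone half-site AGGTCA occurred in 4 windows (9.76%), 3 at Eip74EF and 1 at EcR, and in 2.93% of all nuclear IDR windows. A looser form of the ecdysone response element, 2 half-sites as an inverted repeat around 1 base with at most 3 of 12 fixed bases mismatched, was found in 4 windows (9.76%, against 3.73%): 2 at Hr4, 1 at EcR and 1 at br. Only the peak of 169 at EcR had both, 54 and 50 bp from its summit, so that the half-site may be an arm of that repeat. GAGAG occurred in 15 windows (36.6%, against 28.3%), of which 6 were at EcR, and the repeat CACACACA, in part a simple repeat, in 5 (12.2%, against 5.74%), of which 3 were at br. GATAAG was in 3 windows (7.32%, against 12.3%) and the Zelda sequence CAGGTA in 2 (4.88%, against 3.79%). The AP-1 sequence TGANTCA, the DRE sequence TATCGATA, the E-box CACGTG and the FTZ-F1 sequence CAAGGTC were in none, and in 4.85%, 3.08%, 1.89% and 0.71% of all nuclear IDR windows. Counts this small give descriptions of these windows, and a match does not show that a factor was bound.

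**Figure D4:**
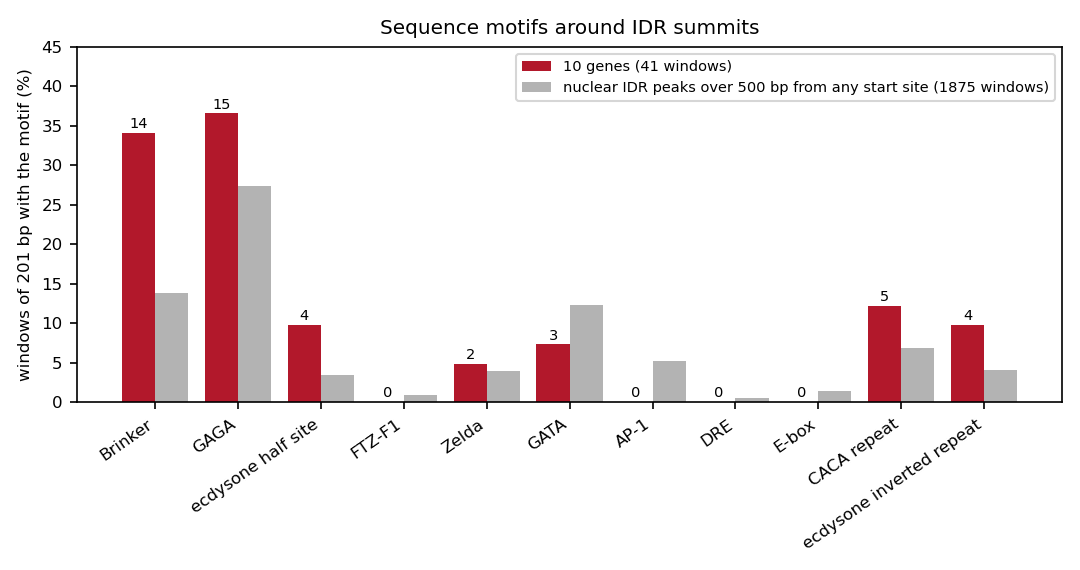
Share of summit windows of 201 bp that hold each sequence (y axis, percent) for the 41 IDR peaks at the 10 genes (red, with the number of windows above each bar) and for the 1875 nuclear IDR peaks farther than 500 bp from any start site (grey). Brinker sequences were in 14 windows and GAGA sequences in 15. The red set includes 6 windows within 500 bp of a start site, and the grey set none. Except for the Brinker sequence, the text compares with all nuclear IDR windows instead.

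Other genes of the pathway were examined from a list of steroid synthesis and transport genes, receptor cofactors and further hormone-responsive or related genes. Of 61 that could be matched, 35 had an IDR summit by the same rule: 4 of 13 for synthesis and transport, 6 of 10 cofactors and 25 of 38 others, beside the 26.9% of all protein-coding genes. By length with flanks, it was 17 of 38 below 20 kb (23% of all genes), 12 of 15 from 20 to 50 kb (48.9%) and 5 of 7 from 50 to 110 kb (56.9%). The 1 gene of 110 kb or more, Eip75B, also had a summit. This list was drawn up with earlier results known, so its excess is no independent evidence. Eip75B, the early gene for a haem-binding nuclear receptor, had 24 IDR summits, more than any other protein-coding gene. Its density was 1.94 per 10 kb, against 0.669 over the windows of the 10 genes and 0.252 over all arms. Protein-coding genes with windows of 20 kb or more, which overlap in part, had 0.308. The strongest peak of Eip75B had 516, with 262 in replicate 3 and 261 in replicate 4. The strongest on the list was at MsrA, a methionine sulfoxide reductase gene induced by ecdysone (537, with 298 and 244), 149 bp from the start of its neighbour CG7841. Next were Ldh, for lactate dehydrogenase (349), Hsp83, for a chaperone of steroid receptors (308), Met, for a juvenile hormone receptor (275), and tai, for a coactivator of EcR (250). The peak counted for Met lay outside that gene, and its nearest start site was that of Ptp10D, 1047 bp away. The peak of Eip78C, with 448, lies between those of Eip75B and Ldh, and those of EcR and Hr4 lie below all 6.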

How the data were processed

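The authors deposited peak lists in the narrowPeak layout on the dm6 build for replicate 3, for replicate 4, for both pooled and for the peaks kept by IDR. Per the notes deposited with the samples, each was made against a control alignment. Neither the labels nor these notes name the peak caller, its settings or the cutoff used for IDR. The deposited signal of each peak has no stated scale and is used only to rank peaks within a list. The deposited −log10 q-value of IDR peaks reaches a ceiling of 3.43, held by 16 of the 41 peaks, and is not used to order them. The summit is the deposited start plus the offset in the last column, and in 82.9% of IDR peaks it equals the midpoint. The lists on the older build were not used.

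Genes and start sites came from Ensembl release 115 (BDGP6.54, dm6 coordinates) and sequence from the RefSeq Release 6 genome. A replicate entry was matched to a peak by an overlap of at least 1 bp, taking the nearest summit. Replicate sites outside the IDR list were joined when summits lay within 200 bp. Counts and motif searches used Python 3.11.15 with pandas 2.3.3 and NumPy 2.4.6, and the code was tested on simulated data. With 1 group and 2 replicates no test was made and no p-value is given. The 10 genes, the motifs and the pathway list were chosen with earlier results of these data known. All 10 genes are named, with the 6 other pathway genes that have the strongest peak, Eip75B among them. Of the pathway names, 3 were matched by synonym and 4 were not matched. The alternatives tried were other flank lengths, a stricter signal limit, interval overlap, either replicate alone, other distances to start sites and other window widths, and, added after the data were seen, a split of windows by GC content.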

Additional observations from a re-analysis of the deposited data

How the results depend on the processing

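No paired analysis was possible because there is 1 group and no comparison between groups. Counting gene bodies without flanks left 39 summits at 7 genes, flanks of 2 kb 40 at 7, flanks of 10 kb 43 at 8 (Eip93F gained 1), and any overlap of peak and window 41 at 7. Beside these, the shares of all protein-coding genes were 8.19%, 19.5%, 37.7% and 27.4%. Shares by gene length were counted with flanks of 5 kb only, so the comparison by length holds for that setting. Peaks at or above the median nuclear signal numbered 19 instead of 41. When the strongest 3380 entries of 1 replicate replaced the IDR list, summits ranged from 36 without replicate 3 to 48 without replicate 4 and genes with a summit from 8 to 9. Without replicate 4, Eip78C had 3, Hr39 4, Hr3 2 and usp 1; without replicate 3, Eip78C had 2, Hr39 1 and Hr3 1. The 35 other pathway genes became 22 without flanks and 34 to 38 with 1 replicate left out, while the share of all protein-coding genes went from 26.9% to 8.19% without flanks, 31.7% without replicate 4 and 26.8% without replicate 3. Summits near a start site of their own gene went from 2 to 1 within 200 bp and 5 within 1000 bp. Within 50 bp of the summit, Brinker sequences were in 3 windows and half-sites in 1. Sites in both replicates outside the list numbered 93 with summits within 100 bp and 165 by overlap, instead of 129. Depth is unknown, so what it limits cannot be stated.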
